A study of Mus musculus with 8 samples.

Results

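Cd274, Cd200 and Tgfb3 encode ligands through which a cell restrains immune cells, and their signals were followed in 8 cultures of bone-marrow mesenchymal stem cells (MSC) of the mouse. The members were found by gene ID, which many probe names of the array carry. Each of the 3 genes had 1 probe, out of 8106 genes that could be named. There were 4 cultures from NOD mice, a strain prone to autoimmune diabetes, taken while blood glucose was normal, and 4 from BALB/c mice of matched age, a strain not prone to it. No genotype beyond the strain, no sex and no age in numbers is given in the sources used here. The series design says that marrow of at least 5 mice was pooled for a culture and that cells were used at passage 4, although each title names what looks like 1 mouse. Interleukin-1 beta is mentioned in the design, but none of the labels gives a treatment and the arrays are treated here as untreated cells. RNA was turned into biotinylated cRNA and read on single-colour Illumina bead arrays, 1 array for each culture, and a probe's signal is the mean brightness of its beads.

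MSC dampen T cell and macrophage responses. PD-L1, the product of Cd274, binds PD-1 on activated T cells and lowers their signalling, and interferon-gamma raises it through the kinases JAK1 and JAK2 and the transcription factor IRF1. CD200 is a surface glycoprotein that binds CD200R, an inhibitory receptor mainly of myeloid cells. TGF-beta 3 is secreted in a latent form, is held in the matrix with the help of latent TGF-beta binding proteins, and signals once released through the receptors TGFBR2 and TGFBR1 to SMAD proteins.

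The array's probe sequences were not used here. The 250 bases upstream of the gene start are given from RefSeq (build GRCm38.p6) for Cd274 and Cd200, the 2 of 3 members with an entry, because these members moved in opposite directions and their upstream letters can be set side by side. Capitals mark every match, on either strand, to the letters searched.
Cd274, chr19:29367188-29367437, plus strand: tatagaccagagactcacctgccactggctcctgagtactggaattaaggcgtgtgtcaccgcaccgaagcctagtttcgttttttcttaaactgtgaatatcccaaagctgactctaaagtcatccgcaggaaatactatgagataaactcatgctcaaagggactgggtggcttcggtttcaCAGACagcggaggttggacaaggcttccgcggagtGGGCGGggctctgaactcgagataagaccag
Cd200, chr16:45409054-45409303, minus strand: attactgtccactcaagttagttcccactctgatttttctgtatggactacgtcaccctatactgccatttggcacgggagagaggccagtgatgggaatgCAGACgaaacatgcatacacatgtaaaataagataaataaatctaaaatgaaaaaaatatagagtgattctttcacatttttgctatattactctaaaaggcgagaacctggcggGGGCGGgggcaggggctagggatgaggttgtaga
Each window held 1 GC box (GGGCGG), which 32.7% of 32851 such windows of the same length hold. It lay 31 to 26 bases before the start in Cd274 and 34 to 29 bases before it in Cd200. Each also held 1 SMAD-binding element (CAGAC), as 42.2% of all windows do. Neither had a match to an interferon-stimulated response element, written as GAAA repeated after any 2 bases (2.98% of windows), to the gamma-activated site TTCNNNGAA (7.02%), to an NF-kB core, written as GGG and CC with any 5 bases between them (45.8%), or to a TATA box TATAAA (12.4%). These are matches of letters within windows of the reference build, which were not read from NOD or BALB/c mice. They say nothing of binding or of a difference between the strains.

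On each array 36.1% to 39.3% of the probes were detected, that is, had a detection p-value under 0.05 against its negative controls. The background ran higher on the NOD arrays, apart from BALB/c culture 2: the median raw signal of an array was 68.7 to 78.6 in NOD and 56.5 to 74.9 in BALB/c, and the signal at the detection limit was 93.2 to 117 in NOD and 69.9 to 101 in BALB/c. Cd274, the dimmest member, is therefore also given under other background settings. Across the tested probes the NOD arrays correlated with each other at 0.927 to 0.985, the BALB/c arrays at 0.842 to 0.983, and arrays of different strains at 0.812 to 0.906. BALB/c cultures 2 and 3 stood apart from the others of their strain, so the members are also given without them. Of 7 MSC marker genes with a named probe, 5 or 6 were detected on every array, while the endothelial genes Pecam1 and Emcn were detected on none. The number of cultures limits the precision of every value.

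Cd274 was lower in NOD MSC. Its raw signal was 98.7, 113, 61.0 and 84.5 in NOD cultures 1 to 4, where a signal at the detection limit was 108, 101, 117 and 93.2, so only culture 2 passed it. In BALB/c cultures 1 to 4 the signal was 145, 188, 307 and 153 against limits of 69.9, 101, 78.5 and 70.8, and all 4 were detected. The NOD cultures thus lay at or near background and every BALB/c culture above it, without overlap. After background correction and quantile normalization, levels on the log2 scale were 5.57, 5.84, 5.00 and 5.46 in NOD cultures 1 to 4 and 7.12, 7.03, 8.15 and 7.44 in BALB/c cultures 1 to 4. The means were 5.47 ± 0.35 in NOD and 7.43 ± 0.51 in BALB/c (SD, n = 4 each). BALB/c culture 3 had the highest level and the others of that strain lay within 7.03 to 7.44. Fewer expressing cells and less RNA per cell cannot be told apart in such bulk samples. Each member also rests on 1 probe, and whether the strains differ in sequence under it was not tested.

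The difference in Cd274, NOD minus BALB/c, was -1.97 ± 0.30 SE (95% confidence interval -2.64 to -1.29), which is 3.91-fold lower in NOD with an adjusted p of 0.00486 by limma. Its probe met the filter of detection on at least 4 arrays through BALB/c, where 4 arrays detected it, against 1 in NOD. With no filter on dim probes the adjusted p was 0.0179 (limma). The fold is of fitted values, most of those in NOD at background, so its size follows the background model. The authors' normalized table, on a linear scale, gave 91.6 ± 22.1 in NOD and 269 ± 82.7 in BALB/c, 2.94-fold lower in NOD. The raw signals gave 89.4 ± 22.3 in NOD and 198 ± 75.1 in BALB/c, 2.22-fold lower in NOD with the background still in them. When the background fit used the detection p-values exactly as given, the difference was -0.32 and was not called (adjusted p = 0.0707), and with no background correction it was -1.29 (0.0118). The call was kept without each of the 8 cultures in turn, with differences of -2.11 to -1.73 and adjusted p of 0.00421 to 0.0294. Without BALB/c cultures 2 and 3 and with the same probes kept, the difference was -1.82 (adjusted p = 0.00279).

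**Figure D1:**
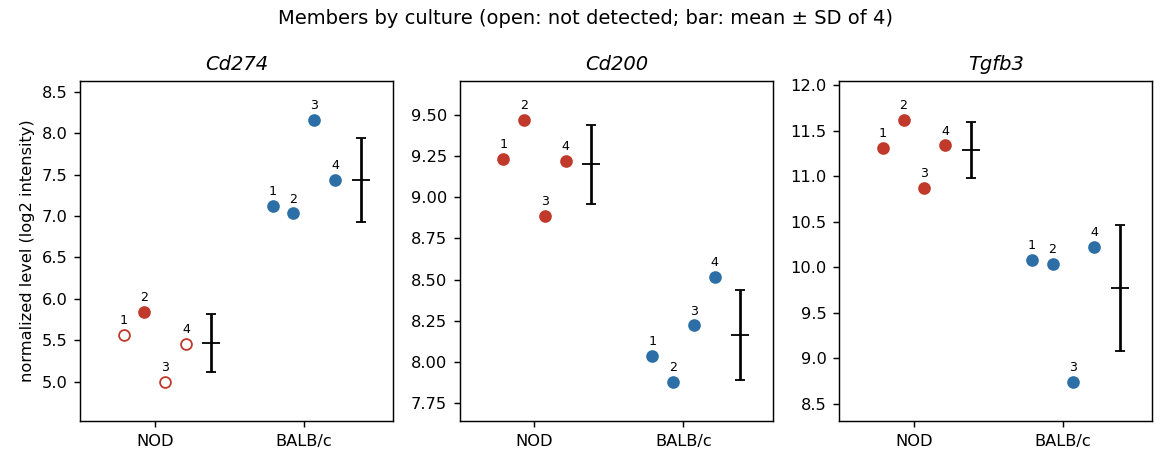
Normalized level (log2 intensity, y axis) of Cd274, Cd200 and Tgfb3 in the 4 NOD and 4 BALB/c cultures, numbered by culture; open points were not detected and black bars give the mean ± SD of 4. Cd274 is at 5.00 to 5.84 in NOD and 7.03 to 8.15 in BALB/c, while Cd200 and Tgfb3 are higher in NOD without overlap.

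Cd200 was higher in NOD MSC. Its raw signal was 691, 865, 674 and 728 in NOD cultures 1 to 4 and 239, 295, 321 and 288 in BALB/c cultures 1 to 4. All 8 arrays detected it, and the dimmest NOD signal was above the brightest BALB/c signal. Normalized levels were 9.23, 9.47, 8.89 and 9.22 in NOD and 8.04, 7.88, 8.22 and 8.52 in BALB/c, in culture order. Both strains were tight, with means of 9.20 ± 0.24 in NOD and 8.16 ± 0.27 in BALB/c (SD, n = 4 each). The difference was 1.04 ± 0.21 SE (95% confidence interval 0.55 to 1.52), 2.05-fold higher in NOD (adjusted p = 0.0201, limma). In the authors' normalized table the levels were 767 ± 101 in NOD and 395 ± 69.1 in BALB/c, 1.94-fold higher in NOD.

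For Cd200 the size held within 0.94 to 1.15 when any culture was left out, but the call was lost without NOD culture 1 (1.03, adjusted p = 0.0733), NOD culture 2 (0.95, 0.0631), NOD culture 4 (1.03, 0.0873) and BALB/c culture 1 (0.99, 0.0745). Without BALB/c cultures 2 and 3 it was kept (0.93, adjusted p = 0.0210).

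Tgfb3 was also higher in NOD MSC, and all 8 arrays detected it. The raw signal was 2659, 3425, 2506 and 2948 in NOD cultures 1 to 4 and 892, 1119, 445 and 932 in BALB/c cultures 1 to 4. Normalized levels were 11.31, 11.62, 10.87 and 11.34 in NOD and 10.08, 10.04, 8.74 and 10.22 in BALB/c. The NOD cultures all lay above the BALB/c cultures, and BALB/c culture 3 was far below the other 3 of its strain. The means were 11.28 ± 0.31 in NOD and 9.77 ± 0.69 in BALB/c (SD, n = 4 each), a difference of 1.51 ± 0.35 SE (95% confidence interval 0.72 to 2.30), or 2.85-fold (adjusted p = 0.0321, limma). In the authors' normalized table Tgfb3 was at 2898 ± 503 in NOD and 1125 ± 402 in BALB/c, 2.58-fold higher in NOD.

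Without BALB/c culture 3 the difference in Tgfb3 was smaller but had less error (1.17 ± 0.22 SE, 2.26-fold, adjusted p = 0.0116), and without BALB/c cultures 2 and 3 it was 1.13 (adjusted p = 0.0109). The call was lost without NOD cultures 1, 2, 3 and 4 (adjusted p = 0.0939, 0.0850, 0.0600 and 0.112) and without BALB/c cultures 1 and 4 (0.0727 and 0.0582), with differences of 1.41 to 1.65. It was also lost under median scaling (1.33, adjusted p = 0.0738) and with no filter on dim probes (1.51, 0.0873).

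All 3 members were called, 1 lower and 2 higher, in a comparison that called 9.11% of 4224 named genes tested, 4.14% higher and 4.97% lower in NOD. Over all 17776 probes tested the share was 8.51%, 4.16% higher and 4.35% lower in NOD. All 3 also had no overlap between the strains, as was true of 18.9% of the named genes and 17.2% of the probes. The genes had been chosen with such results known, so these shares are given as background and not as evidence about the group. Within NOD, culture 2 was highest and culture 3 lowest for Cd200 (0.27 above and 0.32 below the strain mean) and for Tgfb3 (0.33 above and 0.41 below it). Cd274 was detected only in culture 2 of NOD, so no order is read from its other NOD values. Within BALB/c, where all 3 were detected, culture 3 was 0.72 above the strain mean for Cd274, 0.06 above it for Cd200 and 1.03 below it for Tgfb3.

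Around Cd274, the ligand family was thinly covered. Of 18 genes listed for the PD-1 ligand and B7 family, with related receptors, 4 had a named probe and 2 were tested. Beside Cd274 this was Cd276, which encodes the related ligand B7-H3. Its levels were 10.68, 10.64, 10.98 and 10.80 in NOD and 10.02, 9.32, 10.36 and 10.13 in BALB/c. The cultures did not overlap, yet the difference of 0.82 ± 0.25 SE was not called (adjusted p = 0.0795). Icos and Cd160, receptor genes on this list, were detected on no array. Pdcd1lg2, Cd80, Cd86 and Pdcd1 had no probe that could be named.

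Of 22 genes listed as inducers of PD-L1, 8 were tested, with a median difference of -0.45 against -0.02 over all named genes. Of these 8, 1 was called higher, 1 lower and 6 neither way, beside 9.11% of all named genes called. Irf1, the transcription factor that acts on Cd274 downstream of interferon-gamma, was lower in NOD at 9.46, 10.00, 9.04 and 9.45, against 12.43, 10.06, 11.03 and 11.79 in BALB/c. The strains did not overlap, but NOD culture 2 nearly reached BALB/c culture 2. The difference was -1.84 ± 0.48 SE (adjusted p = 0.0491). It was still called without BALB/c culture 2 (-2.26, 0.00679) and lost its call when any other culture was left out (adjusted p up to 0.147). It also lost it under median scaling (0.0661), with detection p-values used exactly as given (0.0733), among probes detected on every array (0.0555) and with no filter (0.138). With the replicate number as a block the call was lost too (0.133). Jak2, a kinase bound to the interferon-gamma receptor, was higher in NOD at 10.56, 10.32, 11.16 and 10.64, against 8.87, 9.84, 9.42 and 9.20 in BALB/c. All NOD cultures lay above all BALB/c cultures. The difference of 1.34 ± 0.27 SE (adjusted p = 0.0187) lost its call without NOD cultures 1, 3 and 4 or BALB/c cultures 1 and 4 (adjusted p up to 0.0750). The block by replicate number lost it as well (0.0884). Ifngr2, a receptor chain for interferon-gamma, read 0.48 ± 0.32 SE (adjusted p = 0.389), and Socs1, an inhibitor of the pathway, 0.16 ± 0.25 SE (0.726). Stat3, Tyk2 and Irf9 were not called either, and Hif1a and Myc were detected on no array by their probes. BALB/c culture 3, which had the highest Cd274, ranked below BALB/c cultures 1 and 4 for Irf1. Whether Irf1 bears on the difference in Cd274 was not tested.

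**Figure D2:**
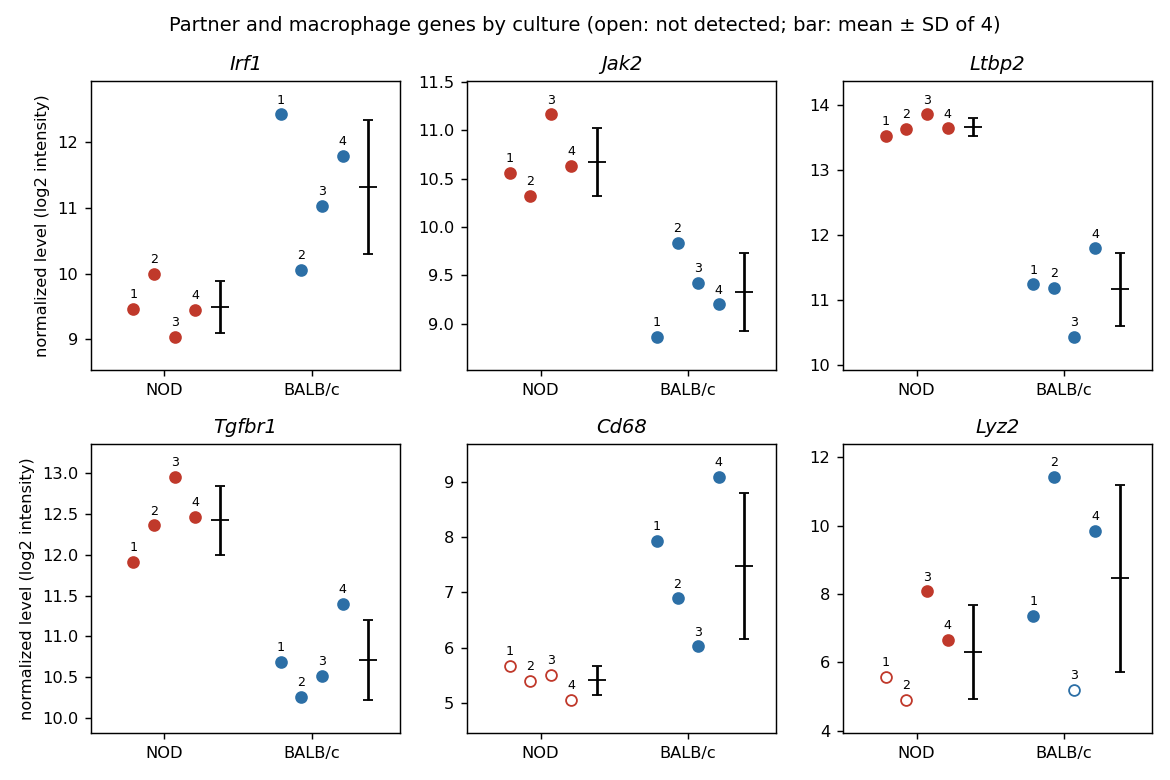
Normalized level (log2 intensity, y axis) of Irf1, Jak2, Ltbp2, Tgfbr1 and the macrophage genes Cd68 and Lyz2 in the NOD and BALB/c cultures, numbered by culture; open points were not detected and black bars give the mean ± SD of 4. Ltbp2 is at 13.53 to 13.86 in NOD and 10.44 to 11.80 in BALB/c, and Cd68 is detected on no NOD array.

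Around Cd200, of 13 genes of the CD200 and CD47 pathway 5 had a named probe and 3 were tested. Only Cd200, which was chosen with its result known, was called, beside 9.11% of all named genes. Cd47, a surface protein that signals to macrophages through a different receptor, stood at 11.53 ± 0.23 in NOD and 11.43 ± 0.28 in BALB/c (difference 0.10 ± 0.21 SE, 95% confidence interval -0.38 to 0.58, adjusted p = 0.796). Rasa1, a Ras inhibitor downstream of CD200R, read -0.19 ± 0.26 SE (adjusted p = 0.694). The receptor gene Cd200r2 was detected on no array by either of its probes, and Cd200r1 and Sirpa had no probe that could be named.

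Around Tgfb3, 10 of 21 genes of TGF-beta ligands and latency were tested, and 2 were called higher and none lower. Of all named genes 9.11% were called. The 2 were Ltbp2 and Tgfb3 itself, which was chosen with its result known. The median difference of the list, Tgfb3 included, was 0.53, beside -0.02 over all named genes. Ltbp2, listed here by the name of its family, had the largest difference of the list. Family membership does not show that its product binds latent TGF-beta, and no role in the latency of TGF-beta 3 is read from it. Its levels were 13.53, 13.64, 13.86 and 13.65 in NOD and 11.25, 11.19, 10.44 and 11.80 in BALB/c. The strains were far apart and the NOD cultures nearly equal. The difference was 2.50 ± 0.28 SE, 5.66-fold (adjusted p = 0.000916), and it stayed called in all 21 alternatives, at 2.12 to 2.81. Tgfb2, the ligand nearest in family, was at 12.41 ± 0.25 in NOD and 11.61 ± 0.32 in BALB/c with no overlap, but was not called (0.80 ± 0.23 SE, adjusted p = 0.0642). Dcn, the matrix proteoglycan decorin that binds TGF-beta, was at 12.96 ± 0.20 in NOD and 13.74 ± 0.33 in BALB/c, also with no overlap and not called (-0.78 ± 0.22 SE, 0.0613), while its dimmer probe read 0.21 with overlap (0.898). Ltbp1 (0.06 ± 0.57 SE, adjusted p = 0.960) and Ltbp3 (0.26 ± 0.26 SE, 0.565) were not called. Among proteins that release the latent form, the integrin chains Itgav (0.83 ± 0.49 SE, 0.331) and Itgb5 (-0.03 ± 0.31 SE, 0.962) and the matrix protein Thbs1 (1.01 ± 0.97 SE, 0.552) were not called. BALB/c culture 3, lowest for Tgfb3, was also the lowest of its strain for Tgfb2, Ltbp1, Ltbp2 and Ltbp3.

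Of 17 TGF-beta receptor and SMAD genes 7 were tested, 1 was higher and none lower, beside 9.11% of all named genes called. The median difference was 0.11, beside -0.02 over all named genes. Tgfbr1, the type I receptor kinase, was at 11.91, 12.35, 12.95 and 12.46 in NOD and 10.69, 10.26, 10.52 and 11.40 in BALB/c. These did not overlap, and the difference was 1.70 ± 0.31 SE, 3.25-fold (adjusted p = 0.0119). The call was lost without NOD culture 4 (adjusted p = 0.0576) and under median scaling (1.42, 0.0542). Its other probe was detected on no array. Tgfbr2, the type II receptor that binds the ligand first, was dim and spread widely, at 6.64 ± 0.65 in NOD and 6.65 ± 1.00 in BALB/c (difference -0.01, 95% confidence interval -1.18 to 1.17, adjusted p = 0.996). Tgfbr3, the co-receptor betaglycan, was 0.75 ± 0.23 SE higher without overlap and was not called (adjusted p = 0.0804), and the shared signal carrier Smad4 read 0.32 ± 0.19 SE (0.333).

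Of 22 TGF-beta response genes 7 were tested and 2 were higher, none lower, beside 9.11% of all named genes called. The median difference was 0.61, beside -0.02 over all named genes. Ltbp2, also listed among the latency genes, was the first. The other was Timp3, an inhibitor of matrix proteases, at 14.10 ± 0.36 in NOD and 12.93 ± 0.45 in BALB/c (1.17 ± 0.28 SE, adjusted p = 0.0388), and its second probe was also higher (2.33, adjusted p = 0.0339). Timp3 lost its call without NOD cultures 2, 3 and 4 or BALB/c culture 1 (adjusted p up to 0.135), under median scaling (0.71, 0.296), with no filter (0.0857), and without BALB/c cultures 2 and 3 (0.82, 0.0519) or 2 and 4 (1.33, 0.0534). The contractile gene Acta2 (0.61 ± 0.90 SE, adjusted p = 0.710), the collagen genes Col1a1 (0.42 ± 0.33 SE, 0.458) and Col3a1 (0.80 ± 0.44 SE, 0.294), and Id3 (-0.37 ± 0.20 SE, 0.270) were not called. Tgfbi, Ccn2, Smad7 and Tgfb1 were among 20 of the 37 chosen partner genes that had no named probe.

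**Figure D3:**
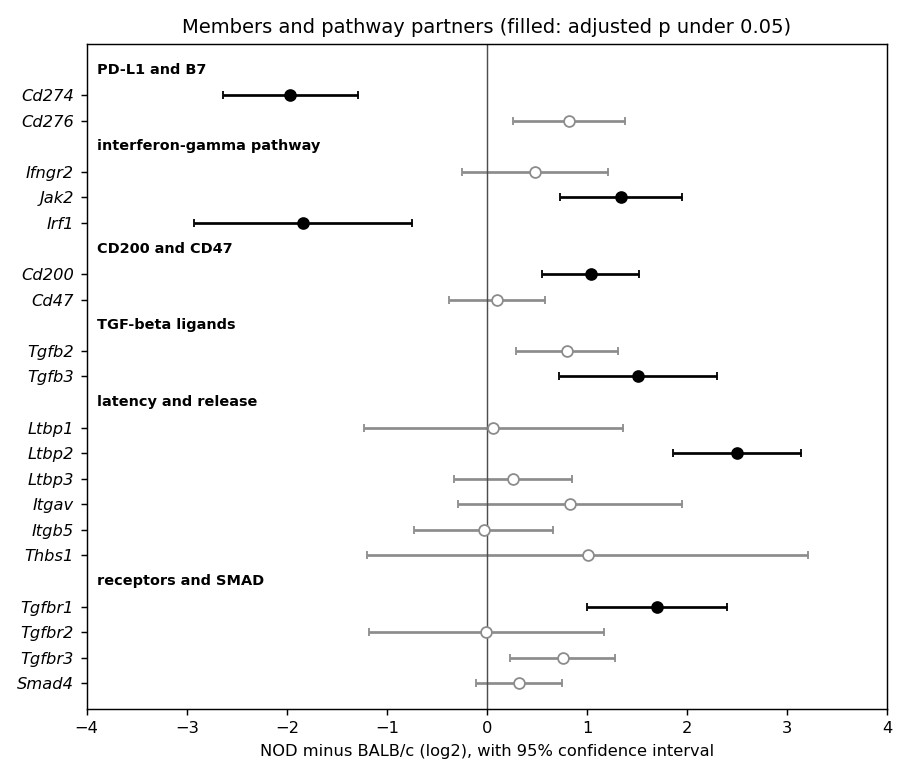
Difference, NOD minus BALB/c (log2, x axis), with its 95% confidence interval for Cd274, Cd200, Tgfb3 and measured partner genes, ordered by role; filled points had an adjusted p under 0.05. Cd274 (-1.97) and Irf1 (-1.84) lie left of 0 and Jak2, Cd200, Tgfb3, Ltbp2 and Tgfbr1 right of it.

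Among 27 immunomodulatory mediators of MSC, 6 were tested and the calls were the 3 members themselves, beside 9.11% of all named genes called. The prostaglandin enzymes Ptgs2 (0.22 ± 0.55 SE, adjusted p = 0.832) and Ptges (-1.16 ± 0.58 SE, 0.251) and the chemokine gene Ccl2 (0.12 ± 0.68 SE, 0.935) were not called, and Ido1, Tnfaip6, Entpd1 and Cxcl12 were detected on no array by their probes. In the MSC marker list, 2 of 6 tested genes were higher in NOD and none lower, beside 9.11% of all named genes called. Vcam1, an adhesion molecule by which MSC hold lymphocytes, was at 12.34 ± 0.25 in NOD and 11.21 ± 0.17 in BALB/c (1.14 ± 0.20 SE, adjusted p = 0.00944, and 0.0578 without NOD culture 4). Its call was also lost under median scaling (0.88, adjusted p = 0.0776) and without BALB/c cultures 2 and 4 (1.08, 0.0534). Col1a2, a type I collagen gene, was 1.22 ± 0.31 SE higher (adjusted p = 0.0470), a call lost without any NOD culture or without BALB/c culture 1 or 4 (adjusted p up to 0.124), under median scaling (1.12, 0.0767), among probes detected on every array (0.0533) and with no filter (0.108). The block by replicate number lost the call of Col1a2 too (0.13). Over all the lists, 10 of 45 tested genes were called, 8 higher and 2 lower, with a median difference of 0.16. Without the 3 members, chosen with their results known, 7 of 42 were called (16.7%), 6 higher and 1 lower, beside 9.11% of all named genes, 4.14% higher and 4.97% lower. The lists too were chosen with earlier results known.

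Macrophages also carry PD-L1, and markers of leukocytes were measured beside it. Of 18 leukocyte genes 9 had a named probe and 2 were tested, neither of which was called, beside 9.11% of all named genes called. Their summed level, in normalized intensity above the offset, was 179, 141, 399 and 211 in NOD cultures 1 to 4, with 0 or 1 of the 9 detected. In BALB/c cultures 1 to 4 it was 496, 2958, 170 and 1699, with 3, 2, 1 and 4 detected. The sums overlapped, since BALB/c culture 3 lay below NOD cultures 1, 3 and 4. Sums this low are largely background, as NOD culture 1 reached 179 with 0 of the 9 genes detected. The pan-leukocyte gene Ptprc and Itgam, Cd3e and Mpo were detected on no array. Csf1r (6.66) and Fcgr3 (6.80) were detected only in BALB/c culture 4. Cd74 was detected only in BALB/c culture 1, though its mean was 5.41 in NOD and 5.27 in BALB/c. The macrophage gene Cd68 was at 5.40 ± 0.26 in NOD, where no array detected it, and at 7.93, 6.89, 6.02 and 9.09 in BALB/c cultures 1 to 4, where all did (adjusted p = 0.0615). Lyz2, another macrophage gene, was at 5.57, 4.92, 8.08 and 6.66 in NOD and 7.36, 11.42, 5.20 and 9.85 in BALB/c (adjusted p = 0.331). BALB/c culture 3, with the highest Cd274 level, had the lowest Cd68 and Lyz2 of its strain. Without BALB/c cultures 2 and 4, which had the highest leukocyte sums, and with the same probes kept, the difference in Cd274 was -2.20 (adjusted p = 0.0177). Without them Cd200 read 1.07 (0.0476) and Tgfb3 1.84 (0.0434). These cultures were picked after the data were seen, and BALB/c culture 1, with Cd68 at 7.93, was kept. Whether leukocytes in the cultures contribute to the difference in Cd274 was not tested.

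The genes next to the members in the RefSeq order were looked at where a probe could be named, 6 of the 18 nearest protein-coding ones. Beside Tgfb3, Erg28, a protein of sterol synthesis, read 0.83 ± 0.28 SE (adjusted p = 0.103) and Gpatch2l 0.52 ± 0.25 SE (0.232). Beside Cd200, Slc35a5 read -0.49 ± 0.39 SE (0.469), and Atg3 and Slc9c1 were detected on no array. Beside Cd274 only Rln1 had a probe, also detected on none.

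Genes with the most similar pattern were ranked by Pearson correlation over the 8 arrays among the 4224 named genes. The arrays share strain, so these figures largely follow the gap between strains. For Cd274 the nearest were Xrcc6 (r = 0.986), Slc25a26 (0.982), Vamp1 (0.981), Tceanc2 (0.980) and Hoxd4 (0.980), all with lower means in NOD. For Cd200 they were Plxna2 (0.994), Lgi2 (0.989), Tbl2 (0.968), Sema5a (0.967) and Tmem216 (0.966). For Tgfb3 they were Spata7 (0.982), Cemip2 (0.973), Cacna1c (0.972), Cercam (0.971) and Sdhc (0.970). When each strain's mean was taken out first, Plxna2, a semaphorin receptor gene, again stood among the 5 nearest to Cd200 (0.964), and no other gene was in both rankings of a member. By that measure the nearest was Rassf1 to Cd274 (0.992), Rtf2 to Cd200 (0.965) and Pfkl to Tgfb3 (0.992). The differences of these 3 between the strains were not called. Each figure is the highest among the 4224 named genes. Of the NOD values of Cd274 behind its figures, only that of culture 2 was detected.

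**Figure D4:**
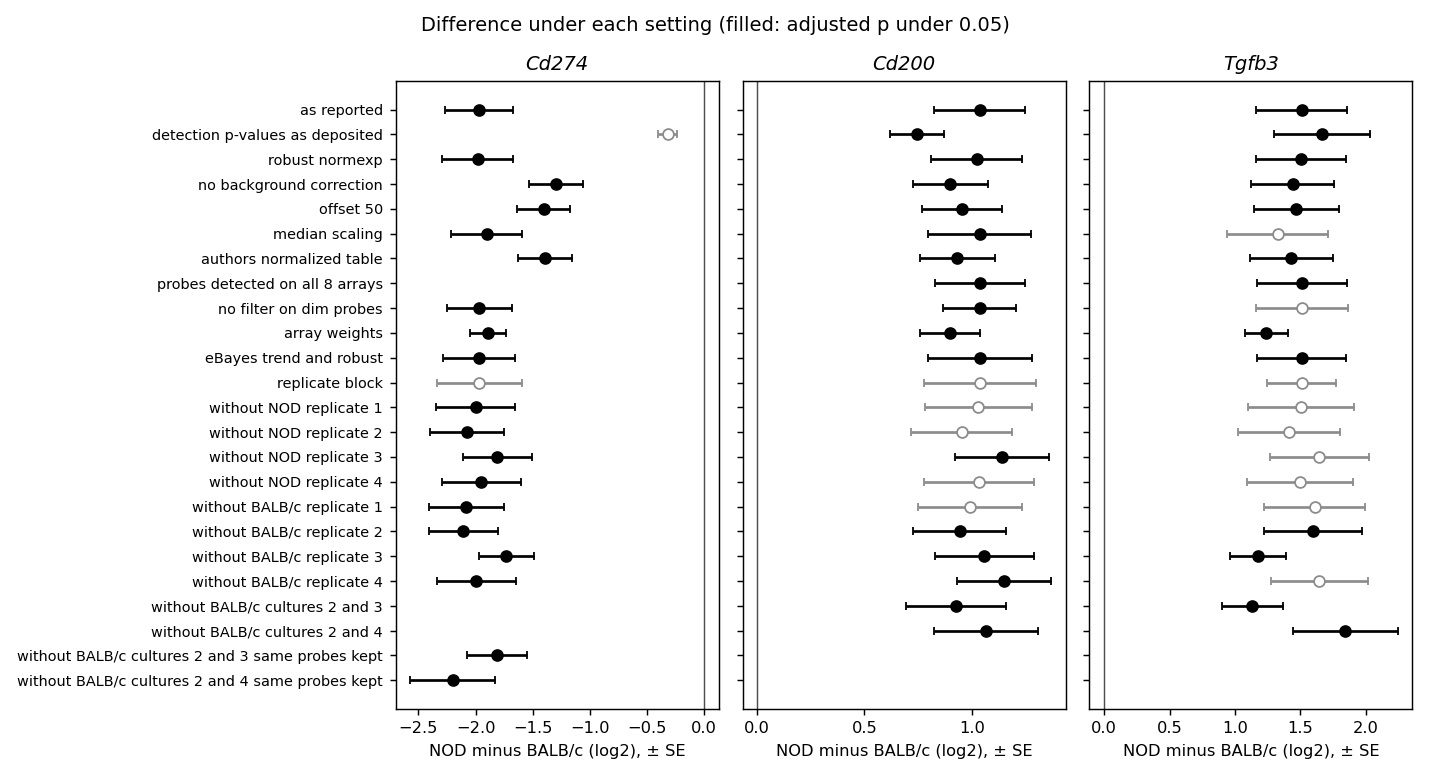
Difference, NOD minus BALB/c (log2, x axis, ± SE), of Cd274, Cd200 and Tgfb3 under each processing setting and with cultures left out (y axis); filled points had an adjusted p under 0.05, and a missing point means that the probe was not tested. Every point of Cd274 lies below 0, nearest to it at -0.32 where detection p-values were used exactly as given, and every point of Cd200 and Tgfb3 lies above 0.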

How the data were processed

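The deposited table of the series gave, for 46628 probes on 8 arrays, the mean bead signal intensity, not normalized per the file headers, and a detection p-value. A second deposited table holds the authors' normalized intensity on a linear scale, whose method is not given in the sources used here. Probe names with 1 or 2 zeros before a number were read as gene IDs, and 81.1% of these numbers were in the RefSeq table of GRCm38.p6. Probe names with a RefSeq accession were matched to the same table, and all other probes stayed unnamed. Analysis used limma 3.58.1 under R 4.3.3. The normexp background model took its negative controls from the detection p-values, after setting p-values above 0 but below 1 step (1 in 1603 negative controls) to 0. An offset of 16 was added, arrays were quantile normalized and log2 was taken. Without that correction 4 or 5 bright probes on an array are read as negative controls. Probes detected on at least 4 arrays, controls left out, were tested with limma (lmFit, then eBayes), p-values were adjusted by Benjamini and Hochberg's method across the 17776 of them, and a call needed an adjusted p under 0.05. The brightest tested probe stood for a gene. The procedure was tested on simulated data. A p-value sets the difference between the strains against the spread among cultures of a strain. Each culture is said to pool at least 5 mice, so that spread would not be the one among single mice.

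The members, gene lists and settings were chosen with earlier results of these data known. Genes named beside the members were the list genes called, a fixed set of 37 pathway partners and 3 coding neighbours on each side. The 5 genes with the nearest pattern by each of 2 measures were also taken. Other list genes that are named were picked to describe their list after values were seen. The signal at the detection limit is the median signal of probes with a detection p-value near 0.05. Some partner genes are not reported here.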

Additional observations from a re-analysis of the deposited data

Results flagged for a closer look

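Tgfb3 in BALB/c culture 3 (normalized level 8.74) lay far from the other 3 cultures of its strain: the gap to the nearest was 0.874 of the group's range, above Dixon's critical value for 4 samples. Of 6 groups examined (3 genes in 2 strains) this was the only such value, and chance flags about 1 in 20 groups.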

How the results depend on the processing

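The sign of the difference was kept in 20 alternatives for Cd274 and in 21 each for Cd200 and Tgfb3, and the calls were kept in 18, 16 and 12 of them. Cd274 lost its call when detection p-values were used exactly as given (-0.32, adjusted p = 0.0707); its level in NOD is near background, where signal limits what can be measured. It had no value among probes detected on all 8 arrays, nor without BALB/c cultures 2 and 3 or 2 and 4 unless the same probes were kept. Tgfb3 lost its call with arrays scaled to 1 median (1.33) and with every probe tested (1.51). With any culture left out the ranges were -2.11 to -1.73 for Cd274, 0.94 to 1.15 for Cd200 and 1.17 to 1.65 for Tgfb3. With the replicate number as a block none of the 3 was called: Cd274 was -1.97 (adjusted p = 0.0624, limma), Cd200 1.04 (0.114) and Tgfb3 1.51 (0.0517). Over all tested probes, same-numbered cultures did not deviate together from their strain means (r from -0.639 to 0.0808). For Tgfb3, culture 3 was the lowest in both strains (-0.41 in NOD and -1.03 in BALB/c). The block also lowered the error of Tgfb3 from 0.35 to 0.26 SE. The correlation over all probes cannot exclude pairing, and the labels do not say whether the numbers pair the cultures.

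The count of 1513 called probes was 776 if all 8 arrays had to detect a probe, 10292 with array weights (whose fit gave a convergence warning), 513 with the replicate block, 5986 without BALB/c cultures 2 and 3, and 460 to 3425 with any culture left out, each of the 8 moving it by over 1.5 times. The 10 list genes called became 4 under median scaling, 6 with no filter, 27 with array weights, 1 with the replicate block, 16 without BALB/c cultures 2 and 3, and 2 to 13 with any culture left out (moved by over 1.5 times without any NOD culture or BALB/c culture 1 or 4). The settings without BALB/c cultures 2 and 4, and those with the same probes kept, were chosen after seeing the data. The cause of these shifts was not tested.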
